A study of Rattus norvegicus with 3 samples.

Results

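Complement is a set of blood and tissue proteins, receptors and inhibitors, and 9 of its genes are described here across the cell types of injured rat spinal cord: C1qa, C1qb, C1qc, C3, C3ar1, C5ar1, Cfd, Cfp and Serping1. They were taken by symbol from the deposited feature tables, where each of the 9 has 1 row among 25199 features, and all 9 were detected. Single-cell RNA libraries were compared, 1 for each of 3 conditions, from wild type rats aged 6 to 8 weeks with an injury of the spinal cord. The site was injected with PBS, with the gel labelled GHD (library G-HD) or with the gel labelled MPGHD (library MPG-HD). Each condition used 5 animals and a piece of cord of 5 mm around the lesion; how the animals were pooled and when the tissue was taken after injury are not given in the labels used here. The title of the series names a multifunctional hydrogel depot for severe injury and the PBS injection serves here as the control.

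Complement can be started by the classical pathway, in which the C1q protein binds antibodies, dying cells or synapses and its partner proteases cleave the next components; by the lectin pathway; and by the alternative pathway, which amplifies cleavage of C3. Cleavage of C3 and C5 marks targets for uptake, releases small peptides that attract and activate myeloid cells through their receptors, and can lead to a lytic pore. In the central nervous system microglia and macrophages are known sources of C1q, and C1q and C3 are known for tagging synapses and debris for removal.

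The C1q protein is built from A, B and C chains, encoded by C1qa (ENSRNOG00000012807), C1qb (ENSRNOG00000012749) and C1qc (ENSRNOG00000012804). These genes lie next to each other on chromosome 5 in the order C1qb, C1qc, C1qa in the RefSeq annotation of GRCr8. Promoters of 6 of the 9 genes were found by symbol in the RefSeq table, C1qa, C1qb, C3, C3ar1, Cfd and Cfp. The 250 bases before the annotated start are shown for 2 chain genes whose levels moved together, and for C3, whose pattern differed from theirs. Capitals mark matches to 3 short motifs searched on both strands, GAGGAA, TTNNGCAA, and GAAA followed after any 2 bases by GAAA.
C1qa promoter, chr5:154419934-154420183, minus strand: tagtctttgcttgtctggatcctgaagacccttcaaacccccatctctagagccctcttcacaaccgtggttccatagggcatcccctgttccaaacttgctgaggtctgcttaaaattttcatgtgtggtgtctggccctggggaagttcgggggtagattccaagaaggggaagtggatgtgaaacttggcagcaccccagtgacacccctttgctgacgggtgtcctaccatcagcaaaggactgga
C1qb promoter, chr5:154407828-154408077, minus strand: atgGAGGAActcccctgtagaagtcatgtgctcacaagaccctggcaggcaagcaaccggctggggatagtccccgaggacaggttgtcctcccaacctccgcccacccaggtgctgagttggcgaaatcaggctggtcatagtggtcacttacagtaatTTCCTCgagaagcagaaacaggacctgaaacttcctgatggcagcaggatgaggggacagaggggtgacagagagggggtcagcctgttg
C3 promoter, chr9:2201340-2201589, minus strand: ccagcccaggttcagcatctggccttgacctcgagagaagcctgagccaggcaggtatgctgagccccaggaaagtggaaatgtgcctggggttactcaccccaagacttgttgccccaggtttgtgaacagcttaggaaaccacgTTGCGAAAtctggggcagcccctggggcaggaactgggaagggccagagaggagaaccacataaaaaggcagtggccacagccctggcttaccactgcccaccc

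C1qb held 2 matches to GAGGAA, 1 on each strand, and C3 held 1 match to TTNNGCAA on the opposite strand. No letters of C1qa matched in this window. Of 33469 promoters of the same length, 23.3% held GAGGAA, 9.22% TTNNGCAA and 3.41% the paired GAAA motif. Matches shown do not overlap each other. A match to letters this common is a description of the sequence and not a binding site.

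The libraries held 1513, 2619 and 2339 barcodes with 16081082, 26289759 and 23988263 UMIs (unique molecular identifiers, each counting 1 captured transcript) for PBS, G-HD and MPG-HD, and 1373, 2341 and 2087 cells were kept. Libraries shared 4 to 7 barcodes per pair. Clusters were named from marker lists that hold none of the 9 genes, and complement genes were left out of the clustering. The cells were called macrophage-like (323, 688 and 420 cells in the PBS, G-HD and MPG-HD libraries), microglia-like (281, 302 and 406), oligodendrocyte-like (225, 167 and 395), fibroblast-like (136, 237 and 168), Schwann-like (95, 202 and 208) and T-like (50, 105 and 53). Only these 6 classes had at least 50 cells in every library and were compared. Levels are UMIs per 1000000 UMIs of the class (CPM), with exact Poisson 95% intervals in brackets; with 1 library per condition there is no replicate and no test, and all intervals cover counting error only. All 10 macrophage markers were detected in the macrophage-like class of each library, and 9 of 10 microglia markers in the microglia-like class, where Siglech was at 0.

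C1q transcripts were found mainly in the phagocytes in all 3 libraries. Microglia-like cells made up 20.5%, 12.9% and 19.5% of the PBS, G-HD and MPG-HD libraries and held 56.9%, 47.2% and 57.6% of the C1qa UMIs, and macrophage-like cells held a further 34.6%, 44.1% and 31.0%. In microglia-like cells C1qa stood at 10029 CPM (9923 to 10136) in PBS, 9781 (9679 to 9884) in G-HD and 8737 (8657 to 8817) in MPG-HD. In macrophage-like cells it stood at 3983 CPM (3929 to 4037), 2723 (2693 to 2752) and 3564 (3520 to 3609). The 3 microglia-like values therefore all lay above the 3 macrophage-like values, and the ranges did not overlap. C1qb gave 8734, 8816 and 8613 CPM in microglia-like and 3430, 2304 and 3285 CPM in macrophage-like cells. C1qc gave 5642, 5851 and 5174 CPM against 2544, 1737 and 2220 CPM. Each chain was thus higher in microglia-like cells in every library.

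The 3 chains were found together in nearly all microglia-like and most macrophage-like cells, in proportions that were close between these classes. The proportions differed between the macrophage clusters described next. All 3 were detected in 100%, 99.0% and 99.8% of microglia-like cells (PBS, G-HD, MPG-HD) and in 74.3%, 66.4% and 79.3% of macrophage-like cells. After each cell was thinned to 1000 UMIs these shares were 97.9%, 98.3% and 97.3%, and 52.8%, 39.8% and 53.1%. Of the C1q UMIs of microglia-like cells, 38.8 to 41.1% were C1qa, 35.8 to 38.2% C1qb and 23.0 to 23.9% C1qc. In macrophage-like cells the same shares were 39.3 to 40.3%, 34.1 to 36.2% and 24.5 to 25.7%. Capture of the 3 transcripts is not corrected for, so the shares compare classes and not the amounts of the chains.

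The macrophage-like class was made of 3 clusters that differed far more in C1q than the libraries did. Cluster 4, led by Ms4a4e, Pf4, Siglec1 and Mrc1, held 19444, 21112 and 18009 CPM of C1q (3 chains summed; PBS, G-HD, MPG-HD), against the 24405, 24448 and 22523 CPM of microglia-like cells. Cluster 7, led by class II genes, Clec10a and Lyve1, held 9398, 10641 and 13871 CPM. Cluster 2, led by Mmp12, Fabp4 and Spp1, held 4534, 2901 and 3479 CPM. Of these C1q UMIs C1qa made 44.3%, 45.6% and 45.0% in cluster 2 and 36.3%, 34.2% and 35.8% in cluster 7. C1qc made 23.4%, 21.6% and 19.1% in cluster 2 and 29.7%, 31.5% and 28.8% in cluster 7. All 3 chains were detected in 63.5%, 57.3% and 68.3% of cluster 2 cells and 62.7%, 64.4% and 76.0% of cluster 7 cells. The unnamed cluster 6 of shallow cells (medians of 2474, 1262 and 2451 UMIs) held 23371, 18908 and 17891 CPM of C1q and entered no class. The order microglia-like, cluster 4, cluster 7, cluster 2 was the same in each library, with no overlap between neighbours over the 3 libraries.

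**Figure D1:**
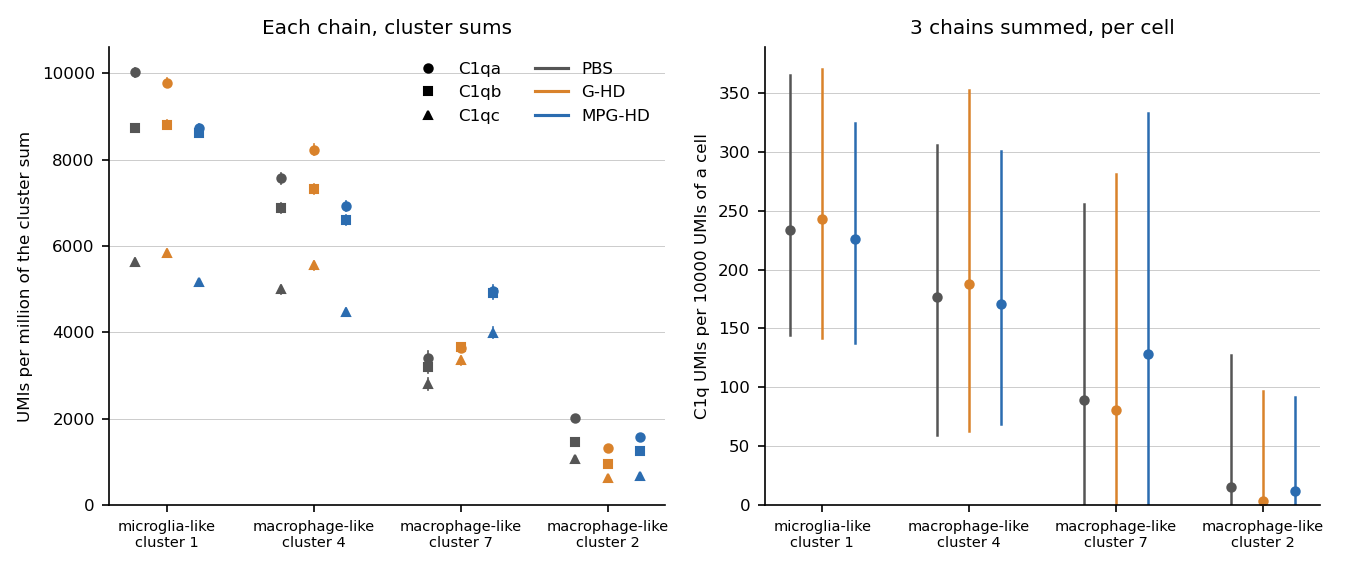
Left, UMIs per 1000000 of the cluster sum for C1qa (circles), C1qb (squares) and C1qc (triangles) in 4 phagocyte clusters and 3 libraries (colours), with 95% Poisson intervals. Right, the 3 chains summed per 10000 UMIs of a cell, as the median (point) and the range from the 10th to the 90th percentile of cells (line); cluster 2 medians sit at 3.67 to 15.4 and microglia-like medians at 226 to 243.

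Within cluster 2 most cells held little C1q and a minority held much. Its median cell had 15.4, 3.67 and 12.1 C1q UMIs per 10000 (PBS, G-HD, MPG-HD), while its 90th percentile stood at 127, 96.5 and 91.5. Microglia-like cells had no such tail of low cells, since their 10th percentile stood at 145, 142 and 138. The G-HD library had the most cluster 2 cells, 415 of its 688 macrophage-like cells, against 148 of 323 in PBS and 186 of 420 in MPG-HD. Over the whole class C1qa was 0.684 of PBS in G-HD (0.672 to 0.696), inside the 1.5-fold limit used here. With clusters weighing the same that ratio was 1.02. The part of the cluster mix in the class ratio was not tested. Within cluster 2 itself C1qa was 0.658 of PBS (0.638 to 0.680), C1qb 0.650 (0.627 to 0.675) and C1qc 0.590 (0.564 to 0.616). Cluster 2 C1qc in MPG-HD was 0.626 of PBS, also past the limit, with C1qa at 0.780 and C1qb at 0.853. In cluster 7 C1qb was past 1.5-fold, at 3195 CPM in PBS and 4916 in MPG-HD (ratio 1.54, 1.46 to 1.62). The other chains lay close to it but inside the limit, C1qa at 1.46 and C1qc at 1.43. Cluster 7 had a tail of cells without C1q too, since its 10th percentile was 0 in each library.

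In the other compared classes C1q was low, and in fibroblast-like and oligodendrocyte-like cells its differences between libraries rested in large part on few cells. Oligodendrocyte-like cells held 184, 197 and 94.2 CPM of C1q, Schwann-like cells 111, 206 and 114, and T-like cells 111, 149 and 271 (PBS, G-HD, MPG-HD). Of the small classes, which were not compared, endothelial-like cells held 57.7, 112 and 81.2 CPM. Oligodendrocyte precursor-like cells held 105, 137 and 82.0 CPM, and neutrophil-like cells 94.4, 232 and 195. Monocyte-like cells of PBS, at 3219 CPM, and mural-like cells of MPG-HD, at 3101 CPM, stood far above. Fibroblast-like cells held 89.3, 159 and 505 CPM, so C1qa was 5.29 times PBS in MPG-HD (4.08 to 6.97), C1qb 6.08 times and C1qc 5.65 times. Of the 1167 C1q UMIs of MPG-HD fibroblast-like cells, 521 sat in 1 cell, and 2 cells held at least 50% of them. Leaving out cells with at least 10 C1q UMIs per 10000, which were 1, 2 and 3 fibroblast-like cells, left 88.8, 121 and 83.1 CPM and C1qa at 0.947 of PBS in MPG-HD. In oligodendrocyte-like cells 1 cell held 245 of the 477 UMIs in PBS, 2 cells held at least 50% in G-HD and 50 cells in MPG-HD, and the same removal left 87.5, 87.9 and 72.6 CPM. By class sums C1qa in oligodendrocyte-like cells of MPG-HD was 0.534 of PBS (0.433 to 0.659), but with every cell weighing the same it was 1.27. In Schwann-like cells C1qb was 2.40 times PBS in G-HD (1.41 to 4.32), where 1 cell held 61 of the 210 C1q UMIs. Leaving out cells of high C1q left 102, 143 and 114 CPM of C1q in Schwann-like cells, and C1qb in G-HD stayed past 1.5-fold of PBS in 12 of 13 alternatives, with 1.44 when the highest doublet scores were removed. Schwann-like C1qc in G-HD, at 1.93 times PBS, stayed past it in 10 of 12. Schwann-like C1qa was inside the limit and ran from 0.572 to 1.83 over the alternatives. In T-like cells the same removal left 106, 139 and 223 CPM, and 10 cells held at least 50% of the 53 MPG-HD UMIs; each chain stayed under the 50 UMIs needed in any pair of libraries. The summed microglia markers moved in part alongside, at 71.8, 96.6 and 66.1 CPM in oligodendrocyte-like and 124, 150 and 165 CPM in fibroblast-like cells, with Siglech at 0 in both classes of every library. The summed macrophage markers were 339, 601 and 287 CPM in oligodendrocyte-like and 2018, 1898 and 2061 CPM in fibroblast-like cells; the part of either list in these differences was not tested. C1qa made 37.9 to 39.6% of the C1q UMIs in oligodendrocyte-like cells, C1qb 32.1 to 34.6% and C1qc 25.8 to 30.0%. In fibroblast-like cells the shares were 34.6 to 39.3%, 34.5 to 39.9% and 25.5 to 26.2%. The C1qc share in oligodendrocyte-like cells was above the 23.0 to 25.7% of the phagocyte classes. The source of this C1q, whether the named cells or free RNA, was not tested.

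**Figure D2:**
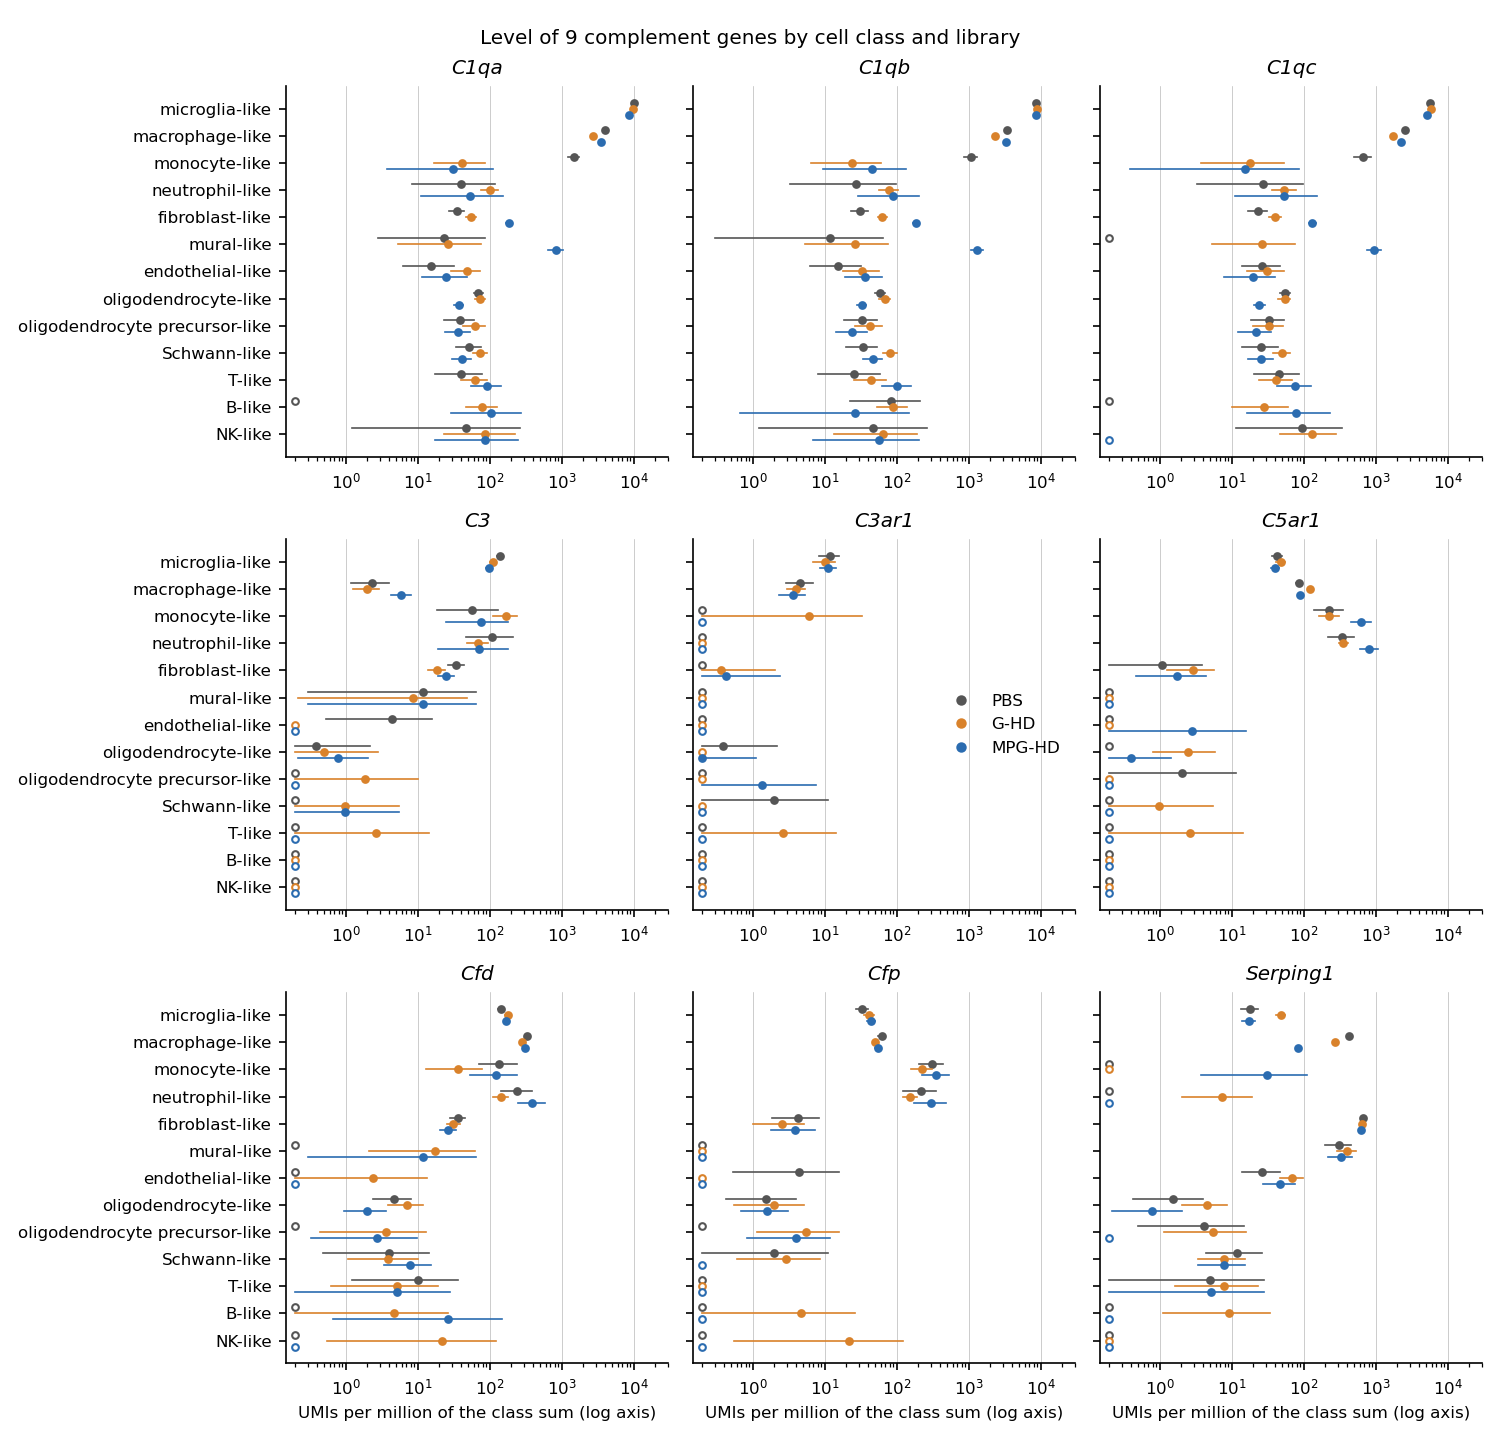
Level of each of the 9 genes (panels) by cell class (vertical axis) and 3 libraries (colours), in UMIs per 1000000 of the class sum on a log axis; lines are 95% Poisson intervals and open circles at the left edge mark a class sum of 0. C1q and C3ar1 lead in microglia-like cells, Cfp and C5ar1 in monocyte-like and neutrophil-like cells, and Serping1 in fibroblast-like cells.

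C3 (ENSRNOG00000046834), the component on which all 3 pathways meet, was present in microglia-like cells and nearly missing from macrophage-like cells, and was also seen in the small monocyte-like and neutrophil-like classes. Microglia-like cells held 138 CPM (126 to 151) in PBS, 111 (100 to 123) in G-HD and 97.6 (89.3 to 106) in MPG-HD, and a C3 UMI was seen in 52.7%, 44.7% and 43.8% of them (14.3%, 12.3% and 7.41% after thinning to 1000 UMIs). Macrophage-like cells held 2.30, 1.99 and 5.94 CPM, with a UMI in 2.79%, 2.62% and 4.05% of cells. Monocyte-like cells held 56.9 (18.5 to 133), 168 (112 to 243) and 76.8 CPM (24.95 to 179), from 5, 28 and 5 UMIs. Neutrophil-like cells held 108 (46.6 to 213), 68.7 (48.4 to 94.7) and 70.9 CPM (19.3 to 182), from 8, 37 and 4 UMIs. The monocyte-like value of C3 in G-HD thus lay above the microglia-like one, with intervals that overlap. Oligodendrocyte-like cells, which served as the level of free RNA, showed a UMI in 0.444%, 0.599% and 1.01% of cells, with median depths of 10782, 11796 and 12071 UMIs against 11497, 11674 and 12448 in microglia-like cells. Microglia-like cells were 12.9 to 20.5 percent of cells and held 76.8%, 69.4% and 76.6% of all C3 UMIs. Cluster 4, the macrophage cluster nearest to microglia-like cells in C1q, held 1.76, 1.97 and 11.4 CPM of C3.

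C3 in microglia-like cells was lower in both gel libraries than in PBS, by ratios of 0.805 (0.703 to 0.921) in G-HD and 0.707 (0.622 to 0.803) in MPG-HD, neither past 1.5-fold. No single cell carried it, since the top cell held 17, 11 and 10 UMIs and 27 to 43 cells held at least 50% of the UMIs. The macrophage-like value of MPG-HD, 2.59 times PBS (1.33 to 5.41), counts 41 UMIs of which 14 were in 1 cell, and with coarser clustering (resolution 0.4) C3 in MPG-HD was 0.450 of G-HD. In G-HD against PBS the macrophage-like C3 UMIs stayed under the minimum of 50, so C3 was measured in this class only through the MPG-HD library, where it is high. Fibroblast-like cells held 34.0, 18.5 and 25.1 CPM of C3, and G-HD was 0.542 of PBS (0.368 to 0.796). The fibroblast clusters differed in this: in the Sfrp2-led cluster 15 the libraries held 57.8, 1.30 and 6.53 CPM, with 17 of the 33 PBS UMIs in 1 cell, while in the Igf2-led cluster 11 they held 33.2, 22.0 and 80.0 CPM.

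The receptors for the cleaved peptides were read, and their levels peaked in different myeloid cells. C3ar1 (ENSRNOG00000009211), the receptor for C3a, was sparse, with 260 UMIs in all kept cells. Microglia-like cells held 11.7 CPM (8.38 to 16.0), 10.0 (7.0 to 13.8) and 11.3 (8.59 to 14.6) in PBS, G-HD and MPG-HD, and macrophage-like cells 4.59, 4.06 and 3.62 CPM. The microglia-like values were higher in each library, and every measured ratio between libraries had an interval that holds 1. Neutrophil-like cells had no C3ar1 UMI in any library, which allows up to 40.5, 5.57 and 53.2 CPM in PBS, G-HD and MPG-HD at 3 counts.

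C5ar1 (ENSRNOG00000047800), the receptor for the chemoattractant C5a, ran the other way, with 87.4 CPM (79.6 to 95.8), 123 (117 to 130) and 89.4 (82.5 to 96.7) in macrophage-like and 42.8, 47.8 and 40.4 CPM in microglia-like cells. Macrophage-like cells were higher in every library, and the ranges did not overlap. The G-HD library stood above PBS in each phagocyte cluster, by ratios of 1.32 (1.14 to 1.52) in cluster 2, 1.98 (1.56 to 2.53) in cluster 4, 1.18 (0.941 to 1.49) in cluster 7 and 1.12 (0.890 to 1.40) in microglia-like cells. The interval left 1 in clusters 2 and 4 only. MPG-HD against PBS gave ratios of 0.901, 1.12, 1.01 and 0.943 in the same clusters, all with intervals that hold 1. Cluster 4 was the one past 1.5-fold, at 58.0 CPM in PBS, 115 in G-HD and 65.1 in MPG-HD, and over the whole macrophage-like class G-HD was 1.41 times PBS (1.27 to 1.57). The summed macrophage markers of that class moved alongside, at 29753, 35553 and 25195 CPM; their part in the difference was not tested.

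The highest C5ar1 levels were in neutrophil-like cells, with 337, 357 and 816 CPM, and in monocyte-like cells, with 227, 228 and 630 CPM, in classes too small to compare (26, 133 and 31, and 20, 24 and 13 cells). Neutrophil-like cells fell into cluster 16, led by G0s2 and Il1r2, with 562, 776 and 878 CPM, and cluster 19 of granule genes, with 130, 237 and 516 CPM. Cluster 19 numbered 5, 59 and 2 cells, so the lower cluster formed the largest part of the class in G-HD and the smallest in MPG-HD.

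Both alternative-pathway genes were highest in myeloid classes. Cfd (ENSRNOG00000033564) encodes factor D, the protease that cleaves factor B. It stood at 330 CPM (314 to 346), 283 (274 to 293) and 311 (298 to 324) in macrophage-like cells and at 143, 178 and 168 CPM in microglia-like cells. Macrophage-like cells were above microglia-like cells in each library, and within either class the 3 libraries lay inside 1.5-fold of each other. With coarser clustering (resolution 0.4) macrophage-like cells held 242, 246 and 232 CPM and microglia-like cells 220, 248 and 225 CPM. The order of the classes did not hold in G-HD at that setting. Neutrophil-like cells held 243 (144 to 384), 143 (113 to 179) and 390 CPM (245 to 591) of Cfd, below macrophage-like cells in PBS and G-HD and above them in MPG-HD. Neutrophil-like cluster 16 held 478, 417 and 471 CPM. Among macrophage clusters, cluster 7 had the highest level, 635, 402 and 488 CPM, against 379, 393 and 384 in cluster 4 and 239, 241 and 230 in cluster 2. In cluster 7 G-HD was 0.633 of PBS (0.553 to 0.725), and 6 of the 67 PBS cells held at least 50% of its 379 UMIs. Clusters 2 and 4 were nearly level between libraries. Fibroblast-like cells held 26.4 to 36.2 CPM.

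Cfp (ENSRNOG00000025811) encodes properdin, which stabilises the alternative-pathway convertase. Monocyte-like cells held 307, 222 and 353 CPM and neutrophil-like cells 216, 152 and 302 CPM, with intervals that overlap between the 2 classes in every library. Macrophage-like cells held 61.8, 50.6 and 54.9 CPM and microglia-like cells 33.1, 41.1 and 43.8 CPM. Among macrophage clusters Cfp followed cluster 7 (188, 169 and 142 CPM), cluster 4 (93.8, 99.9 and 92.5) and cluster 2 (17.4, 22.4 and 14.4), in that order in each library. The same order held for Cfd, whereas C1q was highest in cluster 4. Of all Cfp UMIs, 61.4%, 64.0% and 50.8% came from macrophage-like cells.

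Serping1 (ENSRNOG00000007457) encodes C1 inhibitor, the serpin that blocks C1r, C1s and the lectin-pathway proteases, and it was the member least like the others. It was highest in fibroblast-like cells, at 676 CPM (639 to 714), 645 (615 to 676) and 635 (603 to 669) in PBS, G-HD and MPG-HD, with a UMI in 94.1%, 92.8% and 94.0% of cells. These libraries were close, at 0.954 and 0.940 of PBS. Among small classes, mural-like cells held 306, 399 and 330 CPM from 13, 24 and 19 cells, and ependymal-like cells held 628, 493 and 160 CPM from 2, 11 and 9 cells. Inside the fibroblast-like class G-HD and MPG-HD were nevertheless lower than PBS in cluster 15 (408 and 433 against 632 CPM) and higher in cluster 11 (806 and 944 against 716 CPM).

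In macrophage-like cells Serping1 stood at 433 CPM (415 to 451) in PBS, 274 (265 to 284) in G-HD and 84.3 (77.6 to 91.4) in MPG-HD. MPG-HD was 0.195 of PBS (0.177 to 0.213) and 0.308 of G-HD (0.281 to 0.336). The level sat in a few cells: 8, 10 and 9 cells held at least 50% of the UMIs, and a single PBS cell held 417 of 2263. Most of its UMIs came from cluster 2 (2082, 3098 and 518), at 712, 352 and 131 CPM, but cluster 4 went the same way in MPG-HD, with 87.9, 86.6 and 25.9 CPM. In cluster 4 the ratio of MPG-HD to PBS was 0.294 (0.209 to 0.408).

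Cells with at least 10 Serping1 UMIs, a limit chosen after the values were seen, were 11.5% of macrophage-like cells in PBS (37 of 323; exact 95% interval 8.19 to 15.4), 9.01% in G-HD (62 of 688; 6.98 to 11.4) and 4.05% in MPG-HD (17 of 420; 2.38 to 6.4). They held 91.3%, 86.2% and 67.9% of the class's Serping1 UMIs. Among the remaining cells the level was 46.2, 43.8 and 29.2 CPM, so there G-HD was 0.949 and MPG-HD 0.633 of PBS. Without the 10 top cells of each library the class ratios were 0.749 and 0.227, and without the single top cell G-HD was at 0.701, inside the limit. In cluster 2 the share with at least 10 UMIs was 22.3%, 14.0% and 8.60%.

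Fibroblast genes were far below fibroblast-like levels in these cells. Col1a1, Col3a1, Dcn and Lum together gave 19.8, 98.9 and 16.0 CPM in macrophage-like cells with at least 10 Serping1 UMIs, 17.1, 41.2 and 19.5 CPM in the other macrophage-like cells, and 16866 to 17653 CPM in fibroblast-like cells with as many. No UMI of the 4 genes was seen in 24 of 37, 38 of 62 and 9 of 17 of them. They were deeper than the rest, with medians of 23750, 24483 and 28721 UMIs against 14810, 15891 and 15153. Without any macrophage-like cell holding a Col1a1 or Col3a1 UMI, Serping1 in MPG-HD was 0.157 of PBS. C1q in the cells with at least 10 Serping1 UMIs was 7202, 5445 and 3179 CPM, against 10576, 6974 and 9529 CPM in the other macrophage-like cells. Within cluster 2 it was 5658, 4987 and 2485 CPM against 4063, 2439 and 3617, so the order was opposite there in PBS and G-HD.

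Microglia-like cells held 17.9 CPM of Serping1 (13.7 to 23.0) in PBS, 47.8 (40.9 to 55.5) in G-HD and 17.4 (14.0 to 21.4) in MPG-HD. G-HD was 2.67 times PBS (1.98 to 3.64), opposite in direction to the macrophage-like class, and a UMI was seen in 10.3%, 18.5% and 9.61% of cells. In G-HD 7 cells held at least 50% of the 172 UMIs. The summed macrophage markers in these cells were 8339, 9990 and 7468 CPM, and the fibroblast markers 21.7, 33.6 and 15.7 CPM; their part in the difference was not tested. With finer clustering (resolution 1.2) the G-HD level was 21.1 CPM, the ratio to PBS 2.26 and that of Serping1 in MPG-HD to G-HD 0.954. With coarser clustering (resolution 0.4) the ratio to PBS was 1.36.

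**Figure D3:**
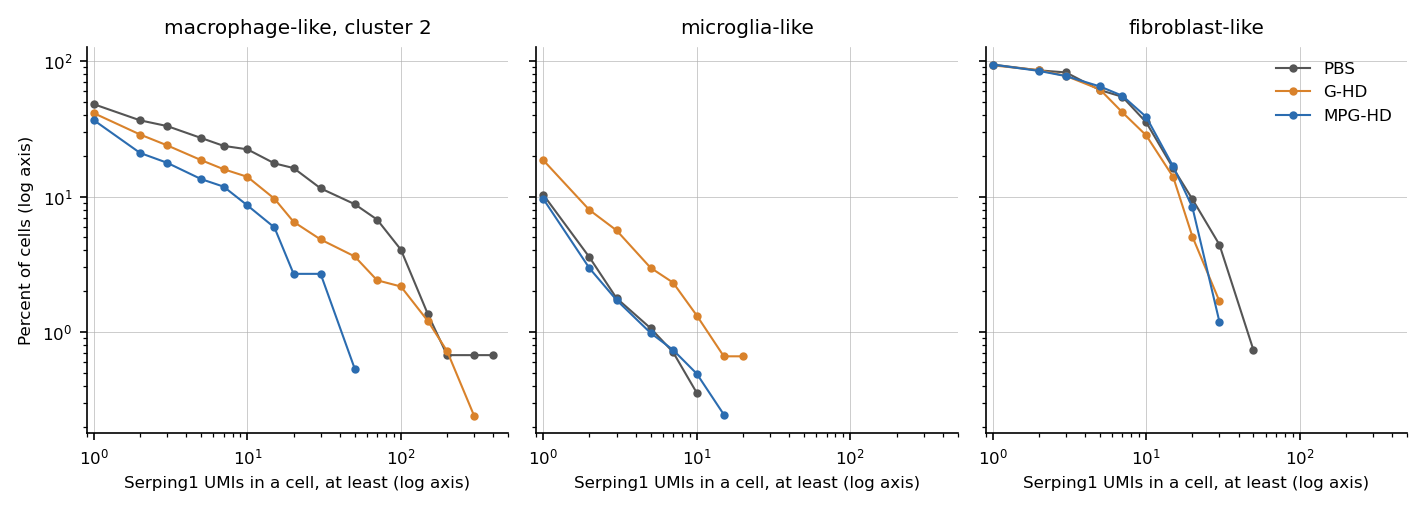
Percent of cells (log axis) with at least the number of Serping1 UMIs on the x axis (log axis), in macrophage-like cluster 2, microglia-like and fibroblast-like cells of 3 libraries. In cluster 2 the share with at least 10 UMIs runs from 22.3% in PBS through 14.0% in G-HD to 8.60% in MPG-HD, while the fibroblast-like curves lie close together.

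Of 54 possible pairs of a gene with a compared class, 29 were measured (at least 50 UMIs in both libraries together) for G-HD over PBS, 28 for MPG-HD over PBS and 30 for MPG-HD over G-HD. For G-HD over PBS 8 pairs were past 1.5-fold, 6 higher and 2 lower, where 12.6% of all features tested in these classes were past it (7.14% higher, 5.47% lower). For MPG-HD over PBS 8 were past it, 4 higher and 4 lower, against 8.97% of all features (3.56% higher, 5.41% lower). For MPG-HD over G-HD 12 were past it, 4 higher and 8 lower, against 9.62% (3.07% higher, 6.54% lower). The comparisons share libraries, so they are not separate evidence. C1q chains in fibroblast-like, oligodendrocyte-like or Schwann-like cells made up 5 of the 8, 6 of the 8 and 9 of the 12. Macrophage-like C3, measured only through MPG-HD, where it is high, is in the last 2 counts.

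In the 2 phagocyte classes the pairs past the limit were of Serping1 or C3 only. In macrophage-like cells 1 of 8 measured members was past it in G-HD over PBS (background 10.7%), 2 of 8 in MPG-HD over PBS (8.08%) and 2 of 9 in MPG-HD over G-HD (7.41%), all of them Serping1 or C3. In microglia-like cells the counts were 1 of 9 (10.2%), 0 of 9 (7.84%) and 1 of 9 (7.47%), all Serping1. The median log2 ratio of the measured members was -0.42, -0.12 and 0.13 in macrophage-like cells and 0.05, -0.05 and -0.16 in microglia-like cells, beside 0.01, -0.02 and -0.03 and 0.003, -0.02 and -0.03 over all features. Schwann-like cells had 2 of 3 (13.1%), 0 of 2 (10.5%) and 3 of 3 (7.82%), and no member was measured in T-like cells. Fibroblast-like cells had 4 of 6 (19.5%), 3 of 6 (10.9%) and 3 of 6 (16.9%) past the limit, and oligodendrocyte-like cells 0 of 3 (8.72%), 3 of 3 (7.81%) and 3 of 3 (7.36%).

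**Figure D4:**
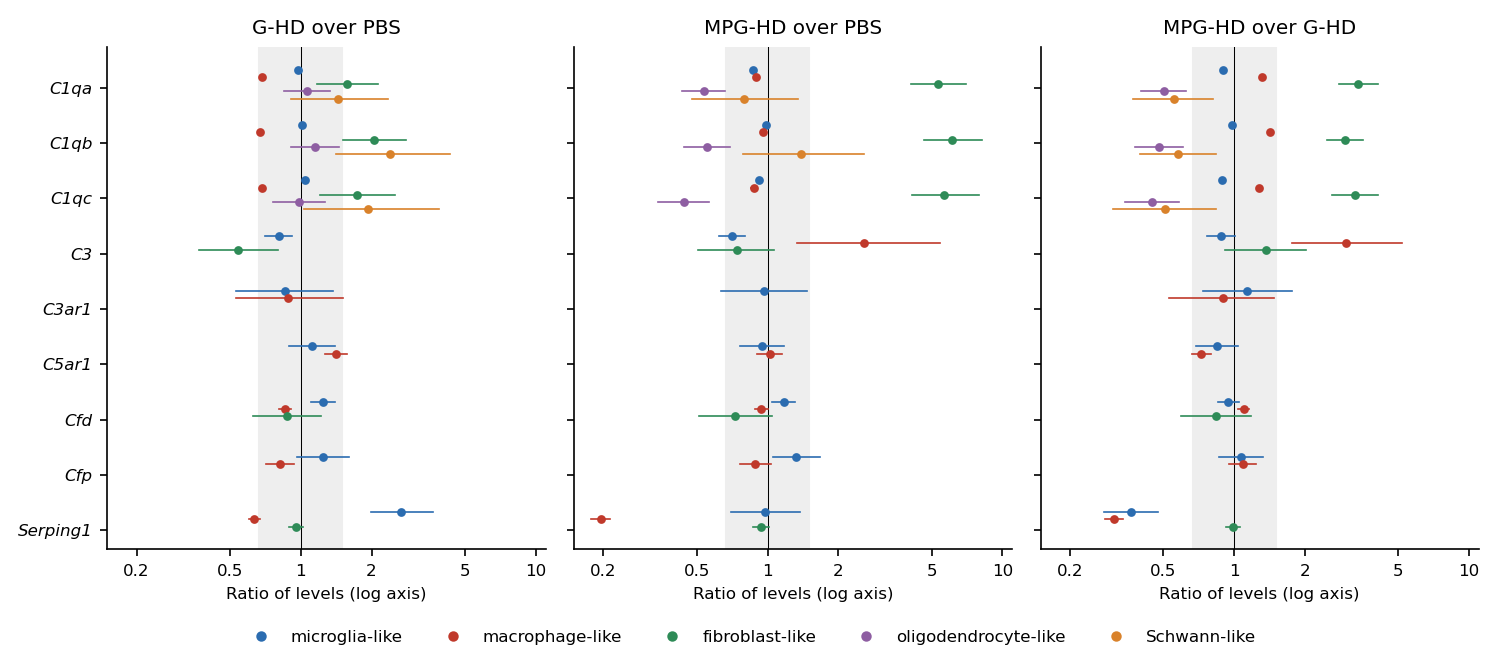
Ratio of levels on a log axis for each measured gene and class in 3 comparisons, with exact 95% intervals for counting error; the grey band spans 1.5-fold in either direction. Macrophage-like Serping1 at 0.195 in MPG-HD over PBS and fibroblast-like C1qa, C1qb and C1qc at 5.29 to 6.08 lie farthest from 1.

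The rest of the pathway was read from 42 further genes, of which 24 had at least 50 UMIs. Of the initiators of the classical and lectin pathways 7 of 13 were measured. C1r, the protease bound to C1q, was highest in fibroblast-like cells (409, 572 and 456 CPM in PBS, G-HD and MPG-HD), where C1q itself was low. Masp1, a protease of the lectin pathway, was highest in oligodendrocyte-like cells (327, 363 and 416 CPM), and Fcna, a ficolin, in macrophage-like cells (171, 125 and 160 CPM). Cfb, the alternative-pathway substrate of factor D, stood at 41.3, 29.4 and 21.2 CPM in microglia-like, 29.8, 22.7 and 23.3 CPM in macrophage-like and 40.4, 10.1 and 28.2 CPM in fibroblast-like cells, with no class highest in every library. In microglia-like cells MPG-HD was 0.514 of PBS for Cfb.

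Of the terminal pathway 3 of 7 were measured, all sparse apart from C6, a pore subunit, which reached 61.1, 173 and 121 CPM in fibroblast-like cells, 2.82 times PBS in G-HD. C7 stayed at 3.19 to 9.05 CPM in fibroblast-like cells and C8g at 7.83 to 17.9 CPM in Schwann-like cells. Of the fluid regulators 3 of 7 were measured, each highest in fibroblast-like cells. Clu, which encodes clusterin, an inhibitor of the pore, stood there at 3441, 1238 and 2330 CPM, and Vtn, which encodes vitronectin, at 60.6, 107 and 56.7 CPM. Cfi, which encodes factor I, a protease that cleaves deposited C3b and C4b, was sparse, at 13.3, 7.60 and 16.5 CPM. Fibroblast-like Clu was 0.360 of PBS in G-HD, with Serping1 in the same class at 0.954. Over all kept cells 1 cell held 627 of the 16923 Clu UMIs. The Igf2-led cluster 11 made up 34 of 136 fibroblast-like cells in PBS and 126 of 237 in G-HD. The part of this mix in the fibroblast-like differences of the further genes was not tested.

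Of the membrane regulators 3 of 6 were measured. Among the 6 compared classes Cd59, which blocks the pore on the cell's own membrane, was highest in Schwann-like cells (211, 276 and 226 CPM). Cr1l, a regulator of C3 cleavage, stood at 67.7, 61.7 and 64.6 CPM in Schwann-like and 55.5, 83.7 and 76.7 CPM in T-like cells, so that T-like cells were above in the gel libraries and below in PBS. Cd55, which speeds decay of the convertases, was at 38.3, 8.32 and 8.23 CPM in fibroblast-like cells. Of the receptors 7 of 8 were measured. Among the 6 compared classes 5 of them were highest in macrophage-like or microglia-like cells by the mean of the 3 libraries. Itgb2, a chain of the receptors for cleaved C3, was among these (207, 192 and 154 CPM in macrophage-like cells). Neutrophil-like and monocyte-like cells were not ranked for the receptors. C1qbp was highest in Schwann-like cells (201, 161 and 182 CPM), and Lrp1 in fibroblast-like cells (406, 391 and 362 CPM). Past 1.5-fold were 14 of 56 measured pairs for G-HD over PBS (7 higher, 7 lower), 11 of 55 for MPG-HD over PBS (1 higher, 10 lower) and 13 of 56 for MPG-HD over G-HD (4 higher, 9 lower), against the 12.6%, 8.97% and 9.62% of all features. In G-HD over PBS 8 of the 14 were in fibroblast-like cells.

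**Figure D5:**
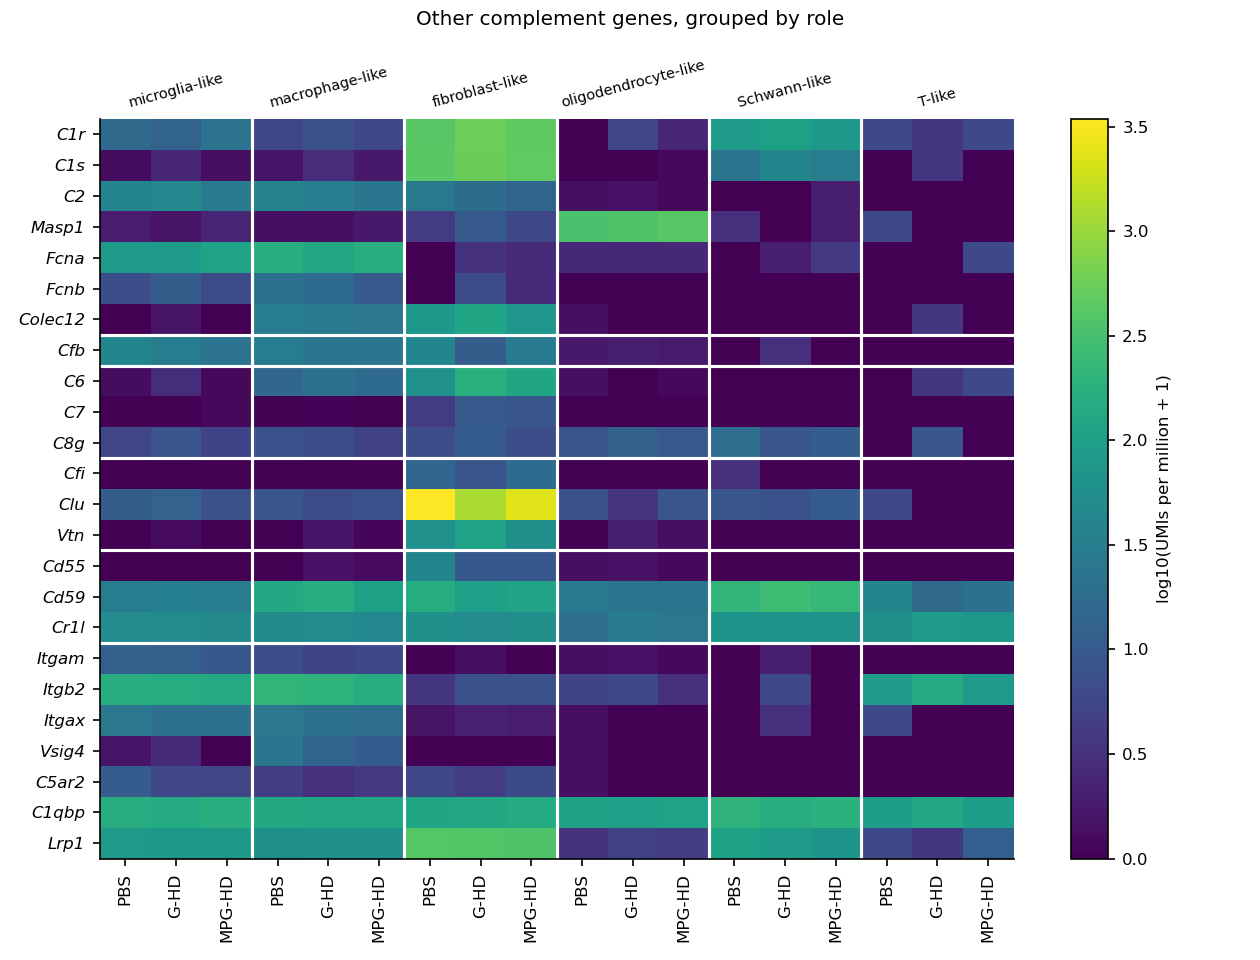
Level of 24 other complement genes (rows, white lines between roles: initiators, alternative pathway, terminal pathway, fluid regulators, membrane regulators, receptors) in 6 classes and 3 libraries (columns), as log10(CPM + 1). Fibroblast-like cells stand out for C1r, C1s, Clu and Lrp1, and oligodendrocyte-like cells for Masp1.

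Patterns over classes were described by Pearson's r of log2(CPM + 10) over 18 points, 6 classes in 3 libraries, which share cells and depth within a library and are given with no test. C1qa, C1qb and C1qc had r of 1.00 with each other, 0.95 with Cfp, 0.90 to 0.92 with C3ar1 and C5ar1, 0.63 to 0.64 with C3 and 0.23 to 0.24 with Serping1. C5ar1, Cfd and Cfp had r of 0.96 to 0.98 with each other, little above the 0.95 of Cfp with C1q, and Cfd had 0.91 with C1q. The monocyte-like and neutrophil-like classes, where C5ar1 and Cfp were highest, are not among the points. Among 9312 features, the 5 with the pattern most like the mean of the C1q chains were Ly86 (r = 0.995), Csf1r, Blnk, Tm6sf1 and Tnnt1 (0.987), of which Csf1r and Blnk were also class markers. C3 was closest to Gal3st4 (0.978), Tmem119, Clec2l, Edn3 and Col4a4 (0.939), and C3ar1 to Alpk3 (0.973), Fcgr3a, Pld4, Siglec5 and Mrgprx3. C5ar1 was closest to Msr1 (0.995), Hk3, LOC691141, Folr2 and Cd300a. Cfd was closest to Plbd1 (0.970), Spp1, Rspo1, Smagp and Wdfy4, and Cfp to Clec4a2 (0.991), Ms4a4e, Dntt, LOC691141 and Arl11. Serping1 was closest to Dchs1 (0.957), Pon3, Colec12, Ctsk and Ube2l6 (0.944).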

How the data were processed

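The authors deposited raw counts, 1 matrix of UMIs per feature and cell barcode for each library, not normalized per the file headers. Per the labels, the libraries were made with a 10x Genomics 3′ kit. Mouse builds (GRCm38, mm10) and Cell Ranger 3.0.2 are listed in the submitters' processing notes. The matrices themselves state version 3.1.0, however, and their 25199 features have Ensembl identifiers of rat, for which the build is not given in the sources used here. The genes and lists were chosen with earlier results of these data known.

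Barcodes were kept from 200 detected genes and up to 20% mitochondrial UMIs. Scrublet (expected rate 6%) called 14 of 5815 cells (0.241%), was taken as not having worked, and the called cells were removed. Clustering used Scanpy 1.11.5, 2000 variable genes without 52 complement genes, 30 principal components, 20 neighbours and Leiden (leidenalg 0.10.2) at resolution 0.8, which gave 24 clusters. Clusters were named from 20 marker sets, and 3 stayed unnamed (110, 226 and 222 cells). Cluster 4 scored as near to the microglia as to the macrophage markers.

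Class sums were scaled to CPM. A pair was measured from 50 UMIs in both libraries together and counted from 1.5-fold. Shares carry exact binomial and ratios exact conditional 95% intervals (SciPy 1.17.1), and the calculation of the ratio intervals was run on simulated data. On simulated class sums of macrophage-like and fibroblast-like cells the intervals covered 95.8% of 43081 true ratios and 3.04% of unchanged features were past 1.5-fold. These sums were Poisson draws, which the intervals assume, and left out the gathering of UMIs in few cells. The run therefore checks the calculation and gives no error rate for these data. All 9 members were named; of other complement genes the 3 with the most UMIs in each role (1 gene is not reported here); for likeness the 5 features with the highest r among those with at least 200 UMIs. Alternatives covered the cell filter, doublets, clustering, weighting, scaling, thinning and thresholds. The protein comparison planned for the C1q chains was not run.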

Additional observations from a re-analysis of the deposited data

Results flagged for a closer look

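Some members were past 1.5-fold in opposite directions in different classes of the same comparison; none of these differences between classes was tested. In MPG-HD over G-HD, C1qa was at 3.38 in fibroblast-like, 0.552 in Schwann-like and 0.501 in oligodendrocyte-like cells, C1qb at 2.96, 0.578 and 0.480, and C1qc at 3.26, 0.510 and 0.447. In MPG-HD over PBS, C1qa was at 5.29 in fibroblast-like and 0.534 in oligodendrocyte-like cells, C1qb at 6.08 and 0.552, and C1qc at 5.65 and 0.440. These C1q sums leaned on single cells, with 521 of 1167 UMIs in 1 fibroblast-like cell of MPG-HD and 245 of 477 in 1 oligodendrocyte-like cell of PBS. Without cells of high C1q, fibroblast-like C1qa was at 0.947 of PBS. With every cell weighing the same, oligodendrocyte-like C1qa was at 1.27. Serping1 in G-HD over PBS was at 2.67 in microglia-like and 0.633 in macrophage-like cells.

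Signal also appeared in cells outside the comparisons. C5ar1 in neutrophil-like cells was 2.42 times PBS in MPG-HD (46 UMIs in 31 cells against 25 in 26; 1.46 to 4.11). At least 50% of the 46 UMIs were in 6 cells. The class joins cluster 16 with cluster 19, which was lower in C5ar1 and gave 5 cells in PBS and 2 in MPG-HD. The part of this mix in the ratio was not tested. Serping1 in unnamed cells was 10.4 times PBS in G-HD (317 UMIs in 226 cells against 13 in 110), with 315 of the UMIs in cluster 9, led by haemoglobin and cell cycle genes, and at least 50% of them in 2 cells.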

How the results depend on the processing

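No paired analysis was possible because each condition has 1 library, and for the same reason no replicate could be left out. Of the 28 pairs past 1.5-fold, 2 stayed past it in all 13 alternatives, macrophage-like Serping1 in MPG-HD over PBS (0.0825 to 0.216) and over G-HD, and fibroblast-like C3 in G-HD over PBS in the 12 that gave a value. The direction turned in 12. The counts of pairs for G-HD over PBS, MPG-HD over PBS and MPG-HD over G-HD were 8, 8 and 12. They were 1, 3 and 2 with cells thinned to 1000 UMIs, where fewer pairs were measured, 15, 14 and 19 at a minimum of 10 UMIs, and 5, 3 and 5 without non-phagocyte cells holding 10 C1q UMIs per 10000. This alternative and the removal of macrophage-like cells with a collagen UMI were chosen after seeing the data. The first count was 3 at 2-fold. The second was 5 with clusters weighing the same and 4 without the top cell, and the last was 7 with every cell weighing the same and 6 without the top cell. Removing the highest doublet scores, from the caller taken as not having worked, gave 2 higher and 5 lower pairs for G-HD over PBS. The cause of these shifts was not tested beyond the construction of each alternative.

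Reversed ratios were C1q chains outside the phagocytes and C3. Thinned, MPG-HD over G-HD in Schwann-like cells gave C1qa 1.08 and C1qc 1.31, and in oligodendrocyte-like cells C1qc 1.77. Without cells of high C1q, fibroblast-like cells gave C1qa 0.947 and C1qb 0.859 over PBS, and C1qa 0.721, C1qb 0.614 and C1qc 0.726 over G-HD. In oligodendrocyte-like cells MPG-HD over PBS gave C1qa 1.27, C1qb 1.38 and C1qc 1.01 with every cell weighing the same, C1qa 1.04 and C1qb 1.02 with clusters weighing the same, and C1qb 1.002 without the top cell and 1.13 thinned. Macrophage-like C3 in MPG-HD over G-HD was 0.450 at resolution 0.4. Of 75 levels, 47 stayed within 1.5-fold in 6 settings. Macrophage-like C1qa in PBS went from 3983 to 2012 CPM at resolution 0.4. At that resolution Cfp was lower in macrophage-like than in microglia-like cells in every library. Depth limits C3ar1 most, with 260 UMIs in all.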
